A study of Drosophila melanogaster with 2 samples.

Results

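The translation initiation factor genes of Drosophila melanogaster were taken as every annotated protein-coding gene whose symbol begins with eIF, written in that case. This gave 44 genes of 13968 protein-coding genes. Their chromatin was examined in whole embryos aged 0 to 24 h from transgenic flies that express the zinc-finger protein CG17328 fused to eGFP, an enhanced green fluorescent protein. Chromatin immunoprecipitation with an anti-GFP antibody was followed by sequencing in 2 biological replicates, which formed 1 group. Whole embryos mix all cell types and ages in that range, and neither a second group nor a control library was analysed here. Which promoters of this family carried a peak of the tagged protein, how high it was, and whether it recurred in both replicates were the questions addressed.

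Translation initiation factors bring the initiator tRNA, the messenger RNA and the ribosomal subunits together at a start codon. eIF1, eIF1A, eIF2, eIF3 and eIF5 act on the small subunit, the eIF4 factors recognise and unwind the capped end of the messenger, and eIF5B and eIF6 act around the joining of the large subunit. Their genes are broadly used housekeeping genes, apart from several copies known for use in the testis.

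Of the 44 genes, 9 had a promoter peak in the conservative list, as the authors named it, of both series-level thresholded lists. A peak was counted at a promoter where its summit was at most 500 bp from any annotated start site of the gene. The 9 genes were eIF1, eIF2A, eIF2D, eIF3a, eIF3c, eIF3h, eIF4G2, eIF5B and eIF6. This share of 20.5% was near the 20.1% of all protein-coding genes, so this count is not a result about the family. Peaks reached from the weak site at eIF4G2, with a pooled signal of 75.35, to that of eIF6 at 919.9. With peaks inside the gene body added, 10 members (22.7%) were marked, against 25.5% of protein-coding genes, the additional gene being eIF4EHP. The signal is the authors' own peak value, pooled over both replicates at series level and therefore without an error. The sources used here give neither its unit nor the read depth behind it.

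The lists differed in which members they held. The other series-level thresholded list added eIF2beta, eIF2gamma and eIF3k, for 12 genes (27.3%) against 21.0% of protein-coding genes, and 13 (29.5%) against 26.4% with gene bodies. The own list of replicate 1 held 8 promoters (18.2%; 14.2% of protein-coding genes) and that of replicate 2 also 8 (18.2%; 15.8%). With gene bodies the counts were 10 (22.7%; 18.6%) in replicate 1 and 9 (20.5%; 20.7%) in replicate 2. These differences amount to a few genes, and no test of the family against other genes was made. The 6 members present in all 4 lists were eIF1, eIF2A, eIF3c, eIF3h, eIF5B and eIF6. The matching share of protein-coding genes is not given here, so this count is a description only.

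The sequence is shown for 7 summits chosen as examples, 4 of them conservative promoter peaks, beside the base composition reported further on. Untranslated regions were avoided in these 7 windows. The bases are from the RefSeq copy of Release 6 plus ISO1 MT, in dm6 coordinates, on the strand of the gene. Capitals mark the longest unbroken run of A and T in each window, and a single run where lengths tie. Windows are 101 bases centred on the summit, shortened for eIF1 and eIF4G2 where an untranslated region begins. For eIF1 and eIF4G2 the G+C reported further on is of the full 101 bases and differs from that of the printed bases. The full eIF1 window holds a run of 6.
eIF1 promoter summit, chr3L:3222961-3223045, plus strand: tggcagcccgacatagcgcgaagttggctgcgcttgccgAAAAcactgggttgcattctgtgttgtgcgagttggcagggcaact
eIF2D promoter summit, chr3R:29151865-29151965, minus strand: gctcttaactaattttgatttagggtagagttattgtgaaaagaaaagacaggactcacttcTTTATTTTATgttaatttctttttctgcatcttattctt
eIF3h promoter summit, chr2L:5052413-5052513, minus strand: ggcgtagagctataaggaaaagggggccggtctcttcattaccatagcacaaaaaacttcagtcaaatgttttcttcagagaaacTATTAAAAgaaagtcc
eIF4G2 promoter summit, chr3R:23819238-23819318, minus strand: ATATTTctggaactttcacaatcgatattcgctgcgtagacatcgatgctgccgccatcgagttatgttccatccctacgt
eIF4EHP promoter candidate, chr3R:24109150-24109250, minus strand: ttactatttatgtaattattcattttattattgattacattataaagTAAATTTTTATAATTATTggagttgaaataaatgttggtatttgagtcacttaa
eIF4EHP intron summit, chr3R:24099137-24099237, minus strand: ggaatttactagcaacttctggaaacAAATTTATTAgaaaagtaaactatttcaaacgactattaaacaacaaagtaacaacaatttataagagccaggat
eIF5B intron summit, chr3L:3438625-3438725, minus strand: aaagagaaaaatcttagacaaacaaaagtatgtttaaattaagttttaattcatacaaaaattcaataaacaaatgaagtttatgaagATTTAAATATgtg
The shortened eIF1 and eIF4G2 windows hold A and T runs of 4 and 6 bases, and those of eIF2D and eIF3h runs of 10 and 8. The run in the eIF4EHP promoter candidate is 18 bases long, and the longest runs in the intronic windows of eIF4EHP and eIF5B are of 10 bases. The eIF5B window also holds an unmarked run of the same length. Among conservative promoter summits not printed, eIF5B, eIF3c and eIF6 held runs of 18, 12 and 11 bases, and eIF2A and eIF3a runs of 4 and 5. These examples therefore do not set promoters apart from introns. The eIF5B intron window shown was the lowest in G+C of the high intronic peaks of that gene.

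Among the factors that open the small subunit for scanning, eIF1 carried a peak and eIF1A did not. The gene eIF1 (FBgn0035423), whose product guards start codon choice, had a pooled signal of 268.6 on 3L from 3222909 to 3223090, which ranked 562 among 5807 conservative peaks. Replicate 1 gave 118.5 and replicate 2 gave 147.9, both inside their own thresholded lists. The summit lay 346 bp upstream of eIF1, the most distant upstream summit among the members. It was at -35 bp from RpL28, a ribosomal protein gene on the opposite strand, so the peak cannot be credited to eIF1 alone. It also lay within reach of snoRNA:Or-CD11a, at -454 bp from that start. At eIF1A (FBgn0026250) the best candidate had a pooled signal of 45.38, below the threshold.

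The genes of the eIF2 group supply the initiator tRNA. Of these 10 genes, 2 had a conservative promoter peak, where 20.1% of protein-coding genes did, and both encode single-chain factors outside the eIF2 and eIF2B complexes. eIF2A (FBgn0037135), known in mammals as an alternative carrier of initiator tRNA, had a pooled signal of 104.3 on 3L from 21824754 to 21825069. Its replicate signals were 46.72 and 58.75, and both replicates listed it. The summit lay 53 bp upstream of an inner start site. From the outermost start it lay 172 bp downstream, inside the 5′ UTR of the longer transcript.

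eIF2D (FBgn0041588), known in mammals for tRNA delivery and ribosome recycling, had a pooled signal of 97.91 on 3R from 29151757 to 29152072, with the summit at -121 bp. Replicate 1 listed it at 53.03. Replicate 2 held a candidate of 43.72 with a −log10 IDR of 1.65, under the threshold of 2. The IDR, or irreproducible discovery rate, estimates the share of peaks that would not recur, and −log10 of 2 is the authors' limit of 0.01. The eIF2D peak therefore rested on replicate 1 for its own-list call, although a candidate was present at the same place in both.

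The complexes themselves had no conservative promoter peak. In eIF2, 2 of 3 subunit genes appeared in the other thresholded list, beside 21.0% of protein-coding genes. With 3 genes this count is not read as a difference. eIF2beta (FBgn0004926) had a pooled signal of 63.08 at -287 bp, with 35.4 in replicate 1 and 23.41 in replicate 2, and neither replicate listed it. In the ranked list behind the conservative one its −log10 IDR was 1.88, just under the limit. eIF2gamma (FBgn0263740), the GTPase subunit, had 40.35 at +174 bp in a coding exon. Of the overlapping replicate signals of 14.67 and 30.41 only the second was listed, at a −log10 IDR of 3.1. The highest candidate at this promoter in the ranked list behind the conservative one was 44.27 at +276 bp (−log10 IDR 1.76). In replicate 1 the highest was 25.23 at +242 bp. The eIF2gamma start is shared with Su(var)3-9, a histone methyltransferase gene, and the +174 bp summit was at -268 bp from the start of Set, on the opposite strand.

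eIF2alpha, whose product is the phosphorylated stress switch of initiation, had a best candidate of only 15.77. All 5 genes of eIF2B, the exchange factor that recharges eIF2 with GTP, had candidates and none passed. Over protein-coding genes, 79.9% had a candidate in the ranked list behind the conservative one and 20.1% had a conservative promoter peak. With 5 genes neither count is read as a difference. The pooled signals of the eIF2B genes were 41.08 for eIF2Balpha, 19.58 for eIF2Bbeta, 27.75 for eIF2Bgamma, 45.41 for eIF2Bdelta and 29.02 for eIF2Bepsilon. eIF2Bdelta came closest, at a −log10 IDR of 1.91. Conservative summits just beyond the window lay at -682 bp for eIF2Bbeta and -781 bp for eIF2Bdelta. The former was the peak of rank 3, with a pooled signal of 1934, and the latter had a signal of 88.38.

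**Figure D1:**
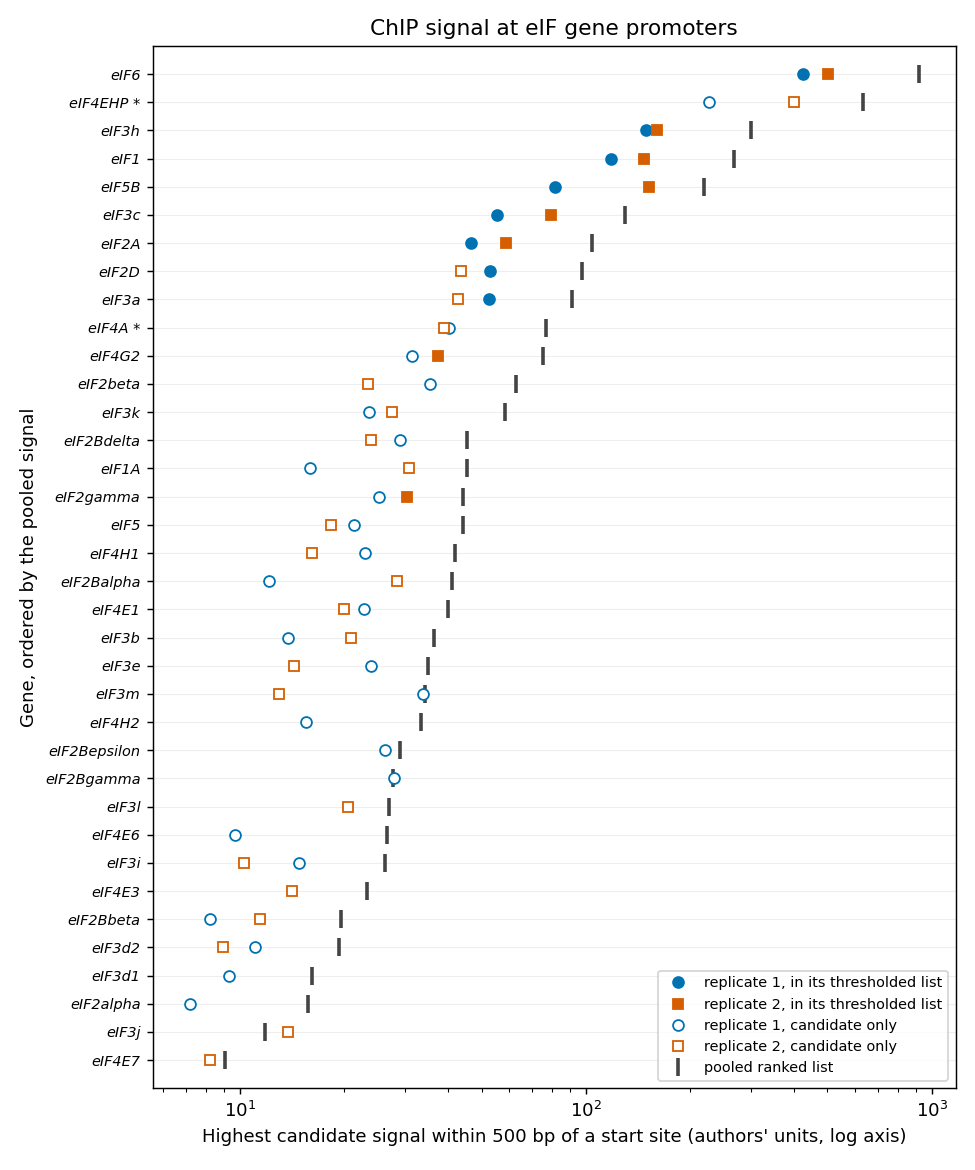
Highest candidate signal within 500 bp of a start site for the 36 eIF genes that have one, in authors' units on a log axis, with pooled values as ticks, replicate 1 as circles and replicate 2 as squares; filled markers are in the replicate's own thresholded list. Asterisks mark eIF4EHP and eIF4A, whose candidates passed the IDR threshold and were left out of the thresholded lists. The plot runs from eIF6 at 919.9 down to eIF4E7 at 9.054.

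eIF3 is the large scaffold that holds the small subunit and the other factors, and 3 of its 16 genes had a conservative promoter peak, beside 20.1% of protein-coding genes. eIF3a, the largest core subunit (FBgn0037249), had a pooled signal of 91.27 at -74 bp on 3R from 4433811 to 4434126. Replicate 1 listed it at 52.68, and replicate 2 held 42.85 at a −log10 IDR of 1.33, outside its list. The start of CG1074 on the opposite strand lay 4 bp from the summit, nearer than that of eIF3a.

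eIF3h (FBgn0022023), a regulatory subunit, had the highest signal of the group at 300.2, on 2L from 5052372 to 5052563 and rank 457. Both replicates listed it, at 149.6 and 161.3, a ratio of 1.08 and the closest pair among the 6 shared member peaks. The summit lay in an intron 317 bp downstream of the nearest start of eIF3h and 631 bp downstream of its outermost start. From the start of senju on the opposite strand the summit was at -380 bp.

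The third gene, eIF3c (FBgn0034258), encodes another core subunit and had a pooled signal of 129.7 at +27 bp, on 2R from 17665547 to 17665862. It measured 55.57 in replicate 1 and 79.19 in replicate 2, listed in both, with the replicate summits upstream at -10 and -19 bp. No other start lay within 500 bp of the eIF3c summit. eIF3k, a small peripheral subunit gene (FBgn0034654), had 58.47 at +52 bp in the other thresholded list. Its replicate signals of 23.7 and 27.62 were outside both own lists, and its −log10 IDR behind the conservative list was 1.90. Of the remaining eIF3 genes, eIF3b, eIF3d1, eIF3d2, eIF3e, eIF3i, eIF3j, eIF3l and eIF3m had candidates between 11.85 and 36.34. The paired copies eIF3f1 and eIF3f2, and eIF3g1 and eIF3g2, had no candidate in the ranked list behind the conservative one or in either replicate's.

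The eIF4 factors bind the cap and prepare the messenger, and 1 of these 13 genes, eIF4G2, had a conservative promoter peak, beside 20.1% of protein-coding genes. Each group is too small for its count to be read as a difference. eIF4G2 (FBgn0260634), a scaffold paralogue known for its requirement in male meiosis, had the lowest signal of the 9 at 75.35, on 3R from 23819110 to 23819425. Replicate 1 held a candidate of 31.44 that was far from its limit (−log10 IDR 0.114), and replicate 2 listed 37.54 at 2.11. The summit at -31 bp was equally near CG33111, which shares the start. An overlapping peak of 11.32 at -230 bp carried the same series-level −log10 IDR of 2.67 and overlapped the same replicate peaks. eIF4G2 also had an intronic peak of 73.41 in the other thresholded list, 1077 bp inside the gene, which replicate 1 listed at 44.52 and replicate 2 did not at 23.77. The general scaffold gene eIF4G1, on chromosome 4, had no promoter candidate, and its nearest conservative summit lay at -52238 bp.

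eIF4A and eIF4EHP are a separate case, since their promoter candidates passed the IDR threshold and were yet absent from the thresholded lists. The deposited conservative list leaves out 137 ranked peaks past the threshold, 84 of them on 3R and 36 on 2L, for a reason that no source used here states. At eIF4EHP (FBgn0053100), which encodes the cap-binding repressor that acts with Bicoid on maternal messengers, the candidate at -240 bp had a pooled signal of 634.5. It ranked 104 of 124555 candidates, on 3R from 24109055 to 24109338. Replicate 1 gave 226.9 and replicate 2 gave 400.2, each at the highest listed −log10 IDR of 5. Had it been kept, it would have stood behind eIF6 alone among the members. The start of CG18428 on the opposite strand lay nearer, with the summit at -136 bp from it.

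At eIF4A (FBgn0001942), the helicase gene, candidates of 76.74 and 60.37 lay 86 bp upstream of the outermost start and 83 bp upstream of an inner one. Their series-level −log10 IDR values were 2.99 and 2.88. The first measured 40.37 and 38.37 in the replicates and the second 35.58 and 38.85, so both stood near the level of the eIF4G2 peak. Unlike at eIF4EHP, the first was under the threshold in both replicates, at −log10 IDR 1.93 and 0.509. The second was under it in replicate 1 at 0.117 and passed in replicate 2 at 2.41. Of the 44 members, 2 (4.55%), eIF4A and eIF4EHP, had such a left-out candidate and no conservative promoter peak, against 64 of all protein-coding genes (0.458%). The difference rests on 2 genes, and they lie on 2L and 3R, the arms that hold most of the left-out peaks.

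**Figure D2:**
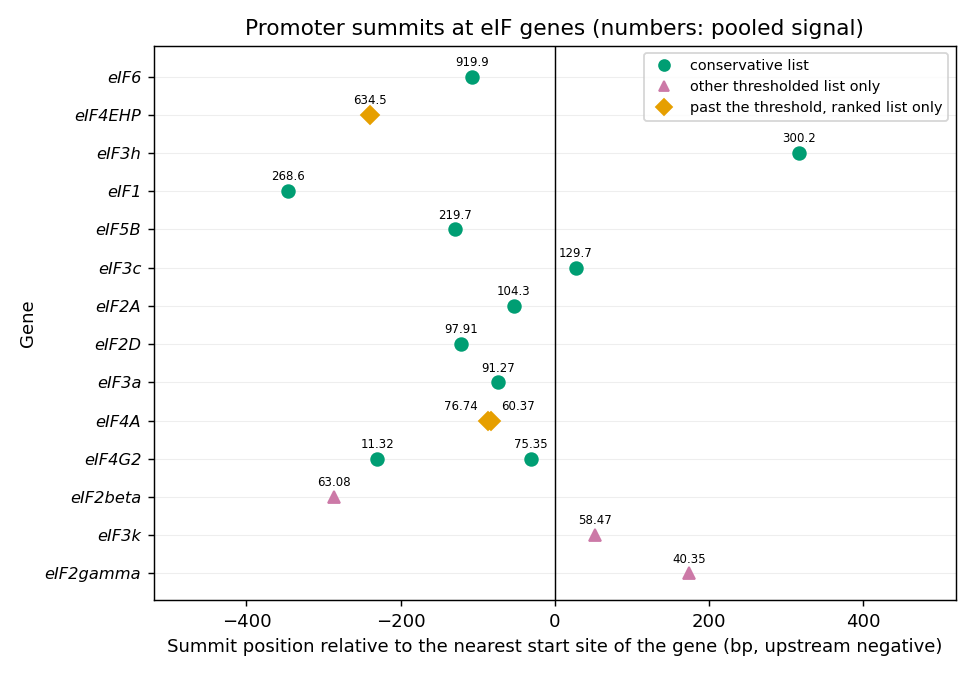
Position of promoter summits relative to the nearest start site of each eIF gene in bp, upstream negative, with the pooled signal printed above each marker. Circles are conservative peaks, triangles peaks of the other thresholded list only, and diamonds the left-out candidates of eIF4EHP and eIF4A. Most summits lie upstream, and those of eIF3h at 317 bp and eIF1 at -346 bp are the most distant conservative ones.

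Of the 7 cap-binding genes, eIF4EHP included, 0 had a thresholded promoter peak in any list, where the lists held from 14.2% to 21.0% of protein-coding genes. With 7 genes this count is not read as a difference. eIF4E1, the main cap-binding protein gene, had a candidate of 39.9 with a −log10 IDR of 1.31, eIF4E3 had 23.26, eIF4E6 had 26.67 and eIF4E7 had 9.054. eIF4E4 and eIF4E5 had none. The helicase cofactor genes eIF4H1 and eIF4H2 had candidates of 41.97 and 33.4, and eIF4B had none. eIF4B also lay farthest from any conservative summit, at 4946142 bp on its arm.

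Among the factors that act last, eIF5, eIF5B and eIF6, 2 of 3 genes had a conservative promoter peak, again beside 20.1% of protein-coding genes. eIF6 (FBgn0034915) keeps the large subunit from joining too early and also serves in its assembly. Its peak, on 2R from 23850276 to 23850527, ranked 39 with a pooled signal of 919.9. This was the highest of the family and at or above that of 98.6% of the 2812 protein-coding genes with a promoter peak. Replicate 1 gave 425.9 and replicate 2 gave 501.7, rank 41 in each own ranked list. The summit was 107 bp upstream of eIF6. The antisense gene asRNA:CR45928 starts nearer, with the summit 78 bp inside it. eIF5 (FBgn0030719), which triggers GTP hydrolysis by eIF2, had only a candidate of 44.18.

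eIF5B (FBgn0026259), the GTPase of subunit joining, was the member with the most peaks. Its promoter peak, on 3L from 3460575 to 3460890, reached 219.7 in pooled signal, with 81.47 in replicate 1 and 152.3 in replicate 2. This was the widest gap between replicates among the 6 shared promoter peaks, a ratio of 1.87. The summit lay 130 bp upstream of an inner start and 244 bp downstream of the outermost one. The gene spans 32320 bp, and its long introns held further conservative peaks of 176, 164.8, 128.1 and 106.9, at 22302, 28097, 25860 and 11071 bp from the outermost start.

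Each of these 4 intronic peaks was listed in both replicates. The peak of 176 measured 72.82 and 98.13, that of 164.8 measured 72.69 and 90.26, that of 128.1 measured 65.02 and 73.12, and that of 106.9 measured 43.15 and 62.57. Replicate 2 was the higher in every pair. A small peak of 6.302 at 10867 bp overlapped the last one and shares its replicate peaks. The other thresholded list added 52.2 at 10413 bp, which replicate 2 listed at 40.59 and for which replicate 1 had no candidate. No other annotated gene overlaps eIF5B, so these summits lie inside its introns alone.

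The gene eIF4EHP, at 45884 bp, also held intronic peaks. Its conservative peak of 149 lay 9773 bp from the start and ranked 1579, with 69.9 in replicate 1 and 82.62 in replicate 2, both listed. The other thresholded list added 50.92 at 26184 bp, listed in neither replicate. Left-out candidates past the threshold had 109.9 at 2559 bp and 66.23 at 3265 bp. Syx1A and CG10694 are annotated inside the span of eIF4EHP. Among the 44 members, conservative gene-body peaks were found at eIF5B and eIF4EHP alone. The share of protein-coding genes with such a peak, promoters aside, is not given here. The long genes eIF4B (15603 bp), eIF4G1 (15419 bp) and eIF4G2 (10953 bp) had none, and a link with gene length was not tested. The median gene length of the members was 1968 bp against 2164 bp over protein-coding genes.

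**Figure D3:**
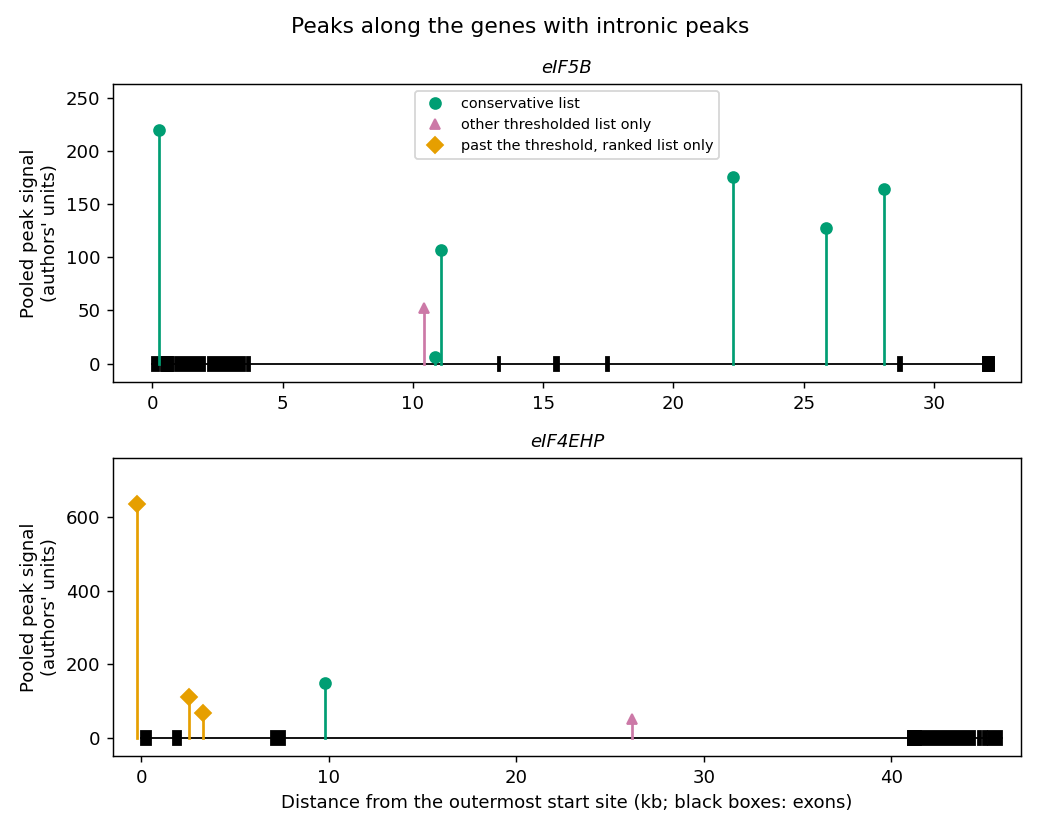
Pooled peak signal in authors' units along eIF5B and eIF4EHP, by distance in kb from the outermost start site, with exons as black boxes. Circles are conservative peaks, triangles peaks of the other thresholded list only and diamonds left-out candidates past the threshold. eIF5B shows 4 intronic peaks between 106.9 and 176, and the highest mark of eIF4EHP is the left-out candidate of 634.5 upstream of its start.

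Read together by level, the members spread across the range of promoter peaks. The median signal of the 9 genes was 129.7, against 109.8 over the 2812 protein-coding genes with a conservative promoter peak. eIF3h, eIF1 and eIF5B stood at or above 88.1%, 85.1% and 79.3% of those genes, eIF3c at 58.1%, eIF2A at 47.4%, eIF2D at 44.0%, eIF3a at 39.6% and eIF4G2 at 25.9%. The order therefore runs from one of the highest promoters to the lower part of the range. The neighbours eIF2A and eIF2D, and eIF2D and eIF3a, differed by less than their own replicate values did. In the other thresholded list the medians were 101.1 and 105.3, in replicate 1 they were 68.52 and 64.96, and in replicate 2 they were 113.5 and 79.05.

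**Figure D4:**
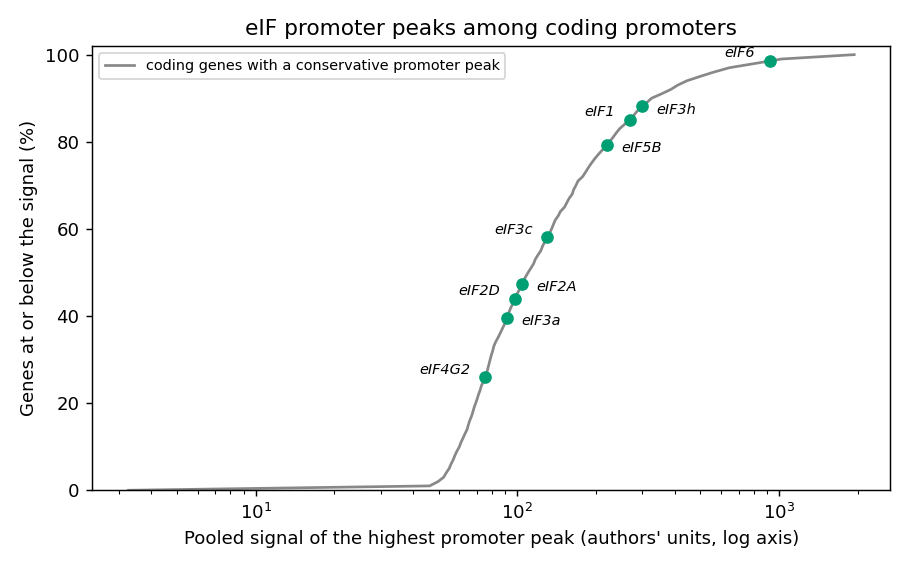
Share of the 2812 protein-coding genes with a conservative promoter peak whose highest pooled signal is at or below a given value (line, percent against authors' signal on a log axis), with the 9 eIF genes as points. eIF6 stands at 98.6% and eIF4G2 at 25.9%.

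Summits lay upstream of the nearest start in 7 of 9 genes (77.8%), with a median of -74 bp, against 82.1% and -118 bp over protein-coding genes. In the other thresholded list 8 of 12 (66.7%) lay upstream with a median of -63.5 bp, and the median was -90 bp in replicate 1 and -48 bp in replicate 2. In the conservative list eIF3c and eIF3h were the exceptions, although both replicates placed the eIF3c summit upstream, at -10 and -19 bp. Where peaks were assigned only to the gene with the nearest start, 6 members were counted, against 15.2% of protein-coding genes under the same rule (eIF2A, eIF2D, eIF3c, eIF3h, eIF4G2 and eIF5B). Of these, eIF4G2 was tied with CG33111, which shares its start. The summits of eIF1, eIF3a and eIF6 were nearer to starts of RpL28, CG1074 and asRNA:CR45928. The strongest member peak thus lies at a start region that eIF6 shares with an antisense RNA.

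The replicates were compared over the 10 conservative promoter peaks of the members, 2 of them at eIF4G2. Of these, 6 overlapped a thresholded peak in both replicates, 2 in replicate 1 alone (eIF2D and eIF3a) and 2 in replicate 2 alone (both of eIF4G2). The shared share was 60.0%, against 53.1% of the 2340 promoter peaks of protein-coding genes. None of the 10 lacked a thresholded peak in both replicates, whereas 549 of the 2340 did. Replicate 2 over replicate 1 had a median ratio of 1.25 in the 6 shared peaks, with a range from 1.08 to 1.87, and the same median of 1.25 over 1242 shared promoter peaks. Whether both replicates' signals are on 1 scale is not stated, so the ratio describes the files. Replicate summits at the 6 peaks differed by a median of 14 bp, against 17 bp.

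Below the threshold, candidates were common everywhere. In the ranked list behind the conservative one, 36 of 44 members (81.8%) had a candidate in the promoter window, against 79.9% of protein-coding genes. The own ranked lists gave 32 members (72.7%; 72.3%) in replicate 1 and 30 (68.2%; 68.0%) in replicate 2. In each ranked list the members' share was close to that of all protein-coding genes. Of the 32 members with no thresholded promoter peak in any list, 2 were the left-out cases, 22 had other candidates with pooled signals from 9.054 to 45.41 (median 28.38), and 8 had none. The 8 were eIF3f1, eIF3f2, eIF3g1, eIF3g2, eIF4B, eIF4E4, eIF4E5 and eIF4G1. The nearest conservative summit lay beyond 5000 bp for 25 members. The same share over protein-coding genes is not given here, so this is not a result about the family.

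Known promoter words were then counted on both strands within 50 bp of the 9 summits, the highest of each gene. The lower eIF4G2 peak, not counted, held none of the words. DRE, the DNA replication-related element that DREF and BEAF-32 are known to bind, is TATCGATA and was present at eIF2A and eIF3a. It was found at 2.65% of 2340 promoter summits and in 5.19% of 19630 windows of equal length that end at coding start sites. The word also stood beside the left-out candidate of eIF4A and, at 53 bp, just past the window of eIF1. TATAAA, the TATA box core, was present at 1 of the 9 summits, that of eIF6 (18.9% and 18.1%). It also stood within 50 bp of the left-out promoter candidate of eIF4EHP and within 100 bp of the eIF3a summit. None of the 9 summits held GGTCACACT of motif 1 (1.15% and 1.95%), CAGCTG of an E-box (5.43% and 7.64%), the A/T word TATTTTAA (5.47% and 2.63%) or GAGAG of GAGA factor (11.4% and 15.3%). Outside the 9, the eIF3k promoter peak held TATTTTAA and the second eIF4A candidate held GAGAG. At least 1 of the 6 words was present at 3 of 9 summits, against 38.6% of promoter summits and 44.1% of start windows. TATTTTAA and TATAAA can overlap each other, and a match is a description only.

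The DRE matches are printed with flanks because DRE was the only 1 of the 6 words found at more than 1 of the 9 summits within 50 bp. The matches at eIF1 and eIF4A, outside that count, are shown beside them. Each line gives 30 bases of the RefSeq Release 6 sequence in dm6 coordinates, on the strand of the gene, with the word in capitals.
eIF1, chr3L:3223034-3223063, plus strand: ggcagggcaacTATCGATAagcatttcgta
eIF2A, chr3L:21824865-21824894, plus strand: ttactatcgctTATCGATAcaccgcgtaca
eIF3a, chr3R:4433915-4433944, minus strand: tcggcctgaacTATCGATAacgcagccagg
eIF4A, chr2L:5981701-5981730, plus strand: ggcgatcgatcTATCGATAgtcgctaatgt
From the nearest start site of the gene, the word lies at -293 bp for eIF1, -86 bp for eIF2A, -34 bp for eIF3a and -49 bp for eIF4A. For eIF2A that is the inner start, and the word lies downstream of the outermost one. From the summit it lies 53, -33, 40 and 37 bp away.

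The base composition of the summits varied among members. In 101 bp centred on the summit, G+C was 27.7% at eIF2D, 38.6% at eIF6, 39.6% at eIF3h, 41.6% at eIF3c, 44.6% at eIF5B, 45.5% at eIF4G2, 46.5% at eIF2A, 51.5% at eIF3a and 52.5% at eIF1. The median of 44.6% stood above 36.6% over the 2340 promoter summits and 41.6% over start windows, without a test. The members' median takes the highest peak of each gene, whereas the 2340 include lower peaks of the same promoters. The lower eIF4G2 peak at -230 bp, outside that median, had 30.7%. The intronic gene-body summits covered a wide range. G+C was 18.8%, 29.7%, 32.7% and 34.7% at the 4 high peaks of eIF5B, 42.6% at its small peak of 6.302 and 27.7% at the conservative peak of eIF4EHP. The other thresholded list had 30.7% at its intronic peaks of eIF5B and eIF4G2 and 53.5% at that of eIF4EHP, and the left-out intronic candidates of eIF4EHP had 42.6% and 47.5%. Over 2277 conservative intronic summits of protein-coding genes the median was 32.7%. The left-out promoter candidate of eIF4EHP was the most A/T-rich of all member peaks, at 16.8% G+C.

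Other translation genes were set beside the family from a list of 29, of which 27 were annotated under the listed symbol and were not members. Conservative promoter peaks were found at 10 of these 27 (37.0%), against the same 20.1% of protein-coding genes. The other thresholded list held 11 (40.7%; 21.0% of protein-coding genes), replicate 1 held 6 (22.2%; 14.2%) and replicate 2 held 8 (29.6%; 15.8%). The list was chosen with earlier results of these data known. Its shares were not tested and are not read as an enrichment. Among elongation factors, eEF1gamma had a pooled signal of 502.2 (189.9 and 303.3 in the replicates), eEF2 230.3, eEF1alpha1 200.8 and eEF5 145.8. The termination factor genes eRF1 and eRF3 had 151.4 and 130.8, the latter with no thresholded peak in replicate 1. Thor, the binding protein that represses eIF4E, had 153.1 at -2 bp. The eIF2alpha kinase genes Gcn2 and PEK had 65.83 and 61.92, mxt had 62, and Pdcd4 had 63.54 in the other series-level list alone. Gcn2, PEK and mxt had no thresholded promoter peak in either replicate, and Pdcd4 had one in replicate 2 alone. All of the pooled signals named here stood below that of eIF6.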

How the data were processed

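Peak lists of both samples and of the series were used as deposited, on the dm6 assembly per the labels. No source used here names the aligner or peak caller. The signal column holds the authors' peak value. The −log10 column of the deposited ranked lists holds the global irreproducible discovery rate (IDR), and the thresholded lists hold ranked peaks at 0.01 or less. The conservative list held 5807 peaks, the other series-level list 6152, replicate 1 3713 and replicate 2 4216. Per-replicate values repeated in 2 columns of the series tables were not used. Read depth is unknown, and no interval was computed.

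Gene models came from Ensembl release 115 (BDGP6) on 7 chromosome arms. Python 3.11.15 with numpy 2.4.6 assigned each summit to genes with a start within 500 bp, then to gene bodies. Peaks matched between lists where they overlapped by at least 1 bp. Assignment was tested on simulated data, where 1400 of 1400 placed peaks were assigned as placed, including those set just outside the window. The expected answer used the same start sites and window, so this checks the code alone. No significance test was run: there was 1 group, and shares are set beside those of all protein-coding genes. Every member with a thresholded peak is named. The members, gene lists and words were chosen with earlier results of these data known. Alternatives covered the list, the threshold, each replicate left out, start-site choice, window sizes and overlap rules.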

Additional observations from a re-analysis of the deposited data

How the results depend on the processing

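The count of 9 eIF genes with a promoter peak (20.1% of protein-coding genes) stayed between 6 and 12, and the share of protein-coding genes moved too. It was 12 in the other list (21.0%), 7 in the strongest 2903 conservative peaks (11.7%), 8 without replicate 2 (14.2%) and 8 without replicate 1 (15.8%). Windows of 250 and 1000 bp gave 7 (16.2%) and 11 (23.6%). Coding transcripts alone gave 9 (20.1%), the outermost start 8 (17.9%) and the nearest gene alone 6 (15.2%). Counting the left-out peaks past the threshold, an alternative chosen after seeing the data, gave 11 (20.6% of protein-coding genes). The count of 10 with gene bodies ranged from 8 to 13 (16.0% and 26.4% of protein-coding genes). The median summit position of -74 bp ranged from -90 bp without replicate 2 to -48 bp without replicate 1. The median signal of 129.7 ranged from 68.52 without replicate 2 to 113.5 without replicate 1; these are single-replicate signals rather than pooled ones. Peaks present in both replicates rose from 6 to 10 when any ranked candidate counted, and were 5 with an overlap of at least 50%. Summits with any of the 6 words numbered 0 within 25 bp and 5 within 100 bp, against 3 within 50 bp, since the searched length changes. Candidate promoters numbered 31 and 40 with windows of 250 and 1000 bp, against 36. No paired analysis was possible because both samples belong to 1 group. With 2 replicates and no read counts, spread and depth behind single peaks cannot be given.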
